A study of Mus musculus with 4 samples.

Results

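The TNF ligand and receptor superfamilies were examined in gonadal white adipose tissue (gWAT) by RNA-seq. Genes were taken by name, as all rows of the expression table whose symbol starts with Tnfsf or Tnfrsf together with Tnf, Lta, Ltb, Ltbr, Cd40, Cd40lg, Cd27, Cd70, Fas, Fasl, Ngfr, Eda, Edar and Relt. This gave 46 of the 17335 genes listed. The control group was fl/fl mice, which carry floxed Dnmt1 alleles and intact DNMT1. The other group was their AD1KO littermates, in which the same floxed alleles are recombined by Cre under the adiponectin promoter. That promoter is active mainly in mature adipocytes, so Dnmt1 is not targeted in the immune, endothelial and stromal cells of the tissue. All mice were female and were fed a high-fat diet (HFD) for 18 weeks, and their age is not given in the sources used here. Equal amounts of RNA from 4 animals were pooled in each group and sequenced as 1 library, so no value below has a replicate in these data and no p-value is given. The study also measured Tnf and Dnmt1 mRNA by quantitative PCR in replicate animals, which is not used here. The other 2 samples of the series, from bisulfite sequencing, were not used here.

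Expression was given in FPKM, fragments scaled to transcript length and library size, which allows levels to be compared between genes. The difference between the libraries was expressed as the log2 ratio of FPKM + 0.01 in AD1KO over fl/fl. A gene was called lower or higher when this ratio was at or past 0.5 in either direction. Reads were estimated from FPKM and transcript length at the depth found for each library, 1.762e+07 reads in fl/fl and 1.746e+07 in AD1KO, and each ratio has an exact 95% counting interval from those reads. The interval covers counting error only, not the spread between animals. Below, "fell" and "rose" are used where the gene was called and its interval left out 0. Dnmt1, the deleted gene, was at 6.99 FPKM in fl/fl and 3.33 FPKM in AD1KO, so the lower level was in the library labelled AD1KO.

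Ligands of the TNF superfamily are mostly membrane proteins that act as trimers, and several are shed as soluble cytokines. Their receptors recruit TRAF adaptors or death-domain adaptors, which lead to NF-kappaB and MAP kinase signalling or to caspase activation. In obese adipose tissue TNF is known as a macrophage product that opposes insulin action in adipocytes, while other members carry signals between T cells, B cells and antigen-presenting cells.

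Most TNF superfamily genes were lower in AD1KO gWAT. Of the 46 members, 44 reached 0.1 FPKM in at least 1 library, and the others, Tnfsf4 and Edar, had about 1 read in each library and 1 read in AD1KO. Among the 44, 26 were lower, against 19.1% of the 15839 genes that passed the same minimum, and 4 were higher, against 14.3% of those genes. With the further condition that the counting interval leave out 0, 19 members fell and 3 rose, against 14.3% and 9.24% of all genes. Their median log2 ratio was -0.79, beside -0.04 for all genes. Without Cd70, for which fl/fl had only about 2 reads and AD1KO lists 0, the median was -0.74. By level, 6 of 10 members above 10 FPKM in fl/fl were lower, beside 15.1% of all genes at that level. At 1 to 10 FPKM 14 of 24 members were lower, beside 18.2% of genes, and at 0.1 to 1 FPKM 6 of 10, beside 32.2%. At this lowest level 0 of the 10 members fell once the interval had to leave out 0, beside 10.5% of genes. There 3 of the 10 members were higher, beside 26.4% of genes.

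**Figure D1:**
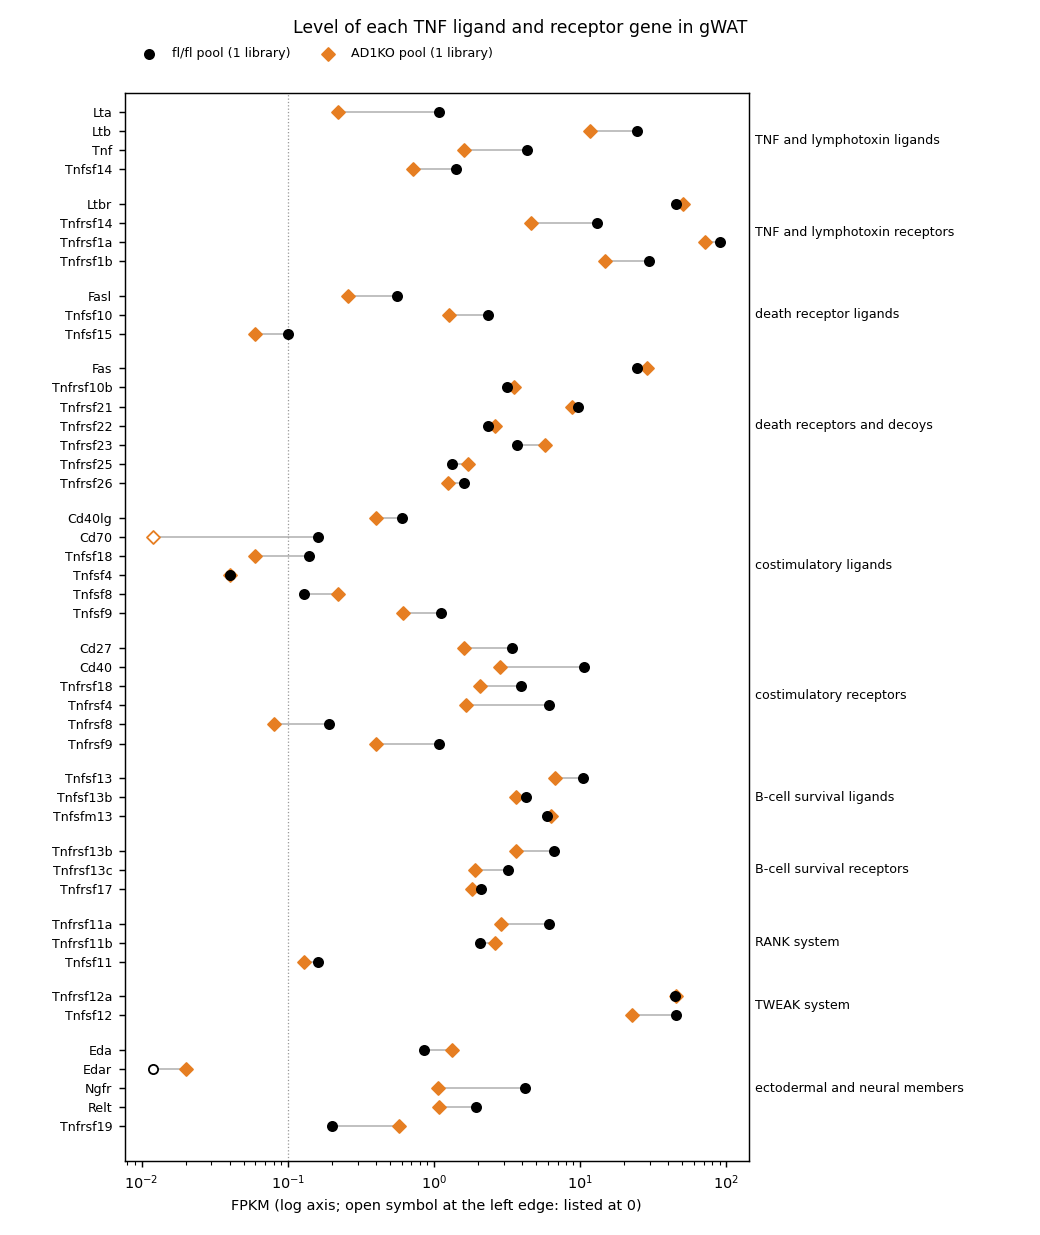
FPKM of each of the 46 genes in the fl/fl pool (circles) and the AD1KO pool (diamonds), grouped by role, on a log axis; the dotted line marks 0.1 FPKM and open symbols stand for genes listed at 0. Levels in fl/fl run from 0 for Edar to 91.05 FPKM for Tnfrsf1a, and the AD1KO symbol lies to the left for most ligands and costimulatory receptors.

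Markers of immune cells moved in the same direction. All 7 T cell markers and all 6 NK cell markers fell, beside 14.3% of all genes. Their medians were -1.64 and -1.95, and their summed levels went from 73.2 to 22.45 FPKM and from 55.4 to 14 FPKM. Of 7 macrophage markers 6 fell, Cd163 being the exception at a log2 ratio of 0.30, and the sum went from 3399 to 1691 FPKM. For B and plasma cells 5 of 7 markers fell (sum 208 to 106 FPKM), and for dendritic cells 4 of 5 fell (sum 15.5 to 7.52 FPKM), with Zbtb46 at 0.05. All 7 adipocyte markers rose, beside 9.24% of all genes, from a sum of 15854 to 24051 FPKM. So did all 4 mesothelial markers, from 70.6 to 133 FPKM. None of the 6 endothelial markers was called (sum 115 to 136 FPKM). Of the stromal progenitor markers Pi16 fell and Dpp4 rose among 6 (sum 946 to 1080 FPKM), and of the 4 epithelial markers Cldn3 was lower, with an interval that included 0 (sum 13 to 13.6 FPKM). No marker was at 0 in either library. Their part in the results below was not tested, and in whole tissue fewer cells of a type cannot be told apart from less RNA per cell.

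**Figure D2:**
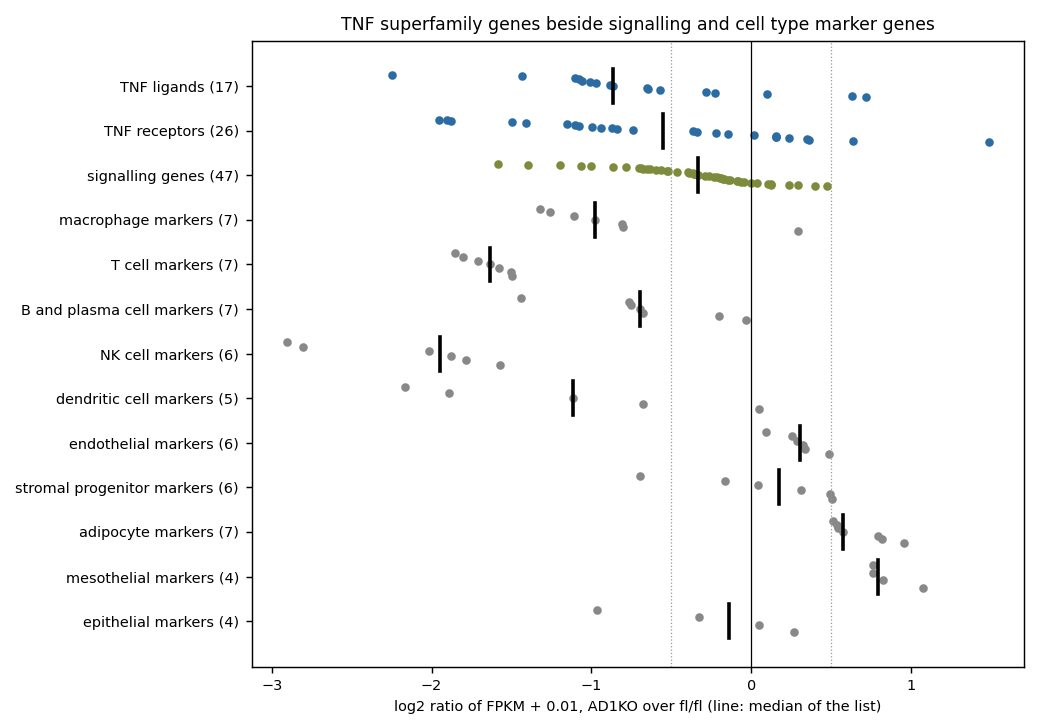
Log2 ratio of AD1KO over fl/fl for single genes (points) with the median of each list (line); the number of genes stands in brackets, dotted lines mark -0.5 and 0.5, and Cd70 is left out. The TNF ligands (median -0.87) and receptors (median -0.55) lie between the T cell and NK cell markers on the left and the adipocyte and mesothelial markers on the right.

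The ligands TNF, lymphotoxin alpha and lymphotoxin beta are encoded side by side on chromosome 17 (mm9), and all 3 fell. Tnf (gene 21926, 35336326 to 35338952, minus strand) had 4.34 FPKM in the fl/fl pool against 1.60 in the AD1KO pool, with a log2 ratio of -1.43 (interval -1.98 to -0.93). Lta (gene 16992, 35340110 to 35342296, minus strand), whose product forms soluble trimers or joins lymphotoxin beta at the cell surface, had 1.08 and 0.22 FPKM, estimated at 25 and 5 reads. Its ratio was -2.24, and the wide interval, -4.05 to -0.90, holds that of Tnf. Ltb (gene 16994, 35331384 to 35333265, plus strand) was the most abundant of these ligands, at 24.5 and 11.75 FPKM, with a ratio of -1.06 (interval -1.31 to -0.82). Ltb stood 5.65-fold above Tnf in fl/fl and 7.34-fold in AD1KO. The intervals of Tnf and Ltb overlap, so these neighbours could not be separated by the size of their fall. Tnfsf14, the ligand LIGHT that binds HVEM and the lymphotoxin beta receptor, fell from 1.42 to 0.72 FPKM, a ratio of -0.97 (interval -1.80 to -0.22).

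The receptors for these ligands divided. Tnfrsf1a (TNFR1), the widely expressed death-domain receptor of TNF, had the highest level of all members, 91.05 FPKM in fl/fl against 71.89 FPKM in AD1KO. Its log2 ratio of -0.34 (interval -0.42 to -0.27) did not reach the threshold, although its interval left out 0. Tnfrsf1b (TNFR2), the TNF receptor of leukocytes and endothelium, fell from 29.43 to 14.78 FPKM, a ratio of -0.99 (interval -1.09 to -0.89), and the intervals of the TNF receptors do not overlap. The level of Tnfrsf1a over that of Tnfrsf1b thus went from 3.09 to 4.86. Tnfrsf14 (HVEM) fell further, from 13.02 to 4.60 FPKM, with a ratio of -1.50 (interval -1.68 to -1.33). Ltbr, the lymphotoxin beta receptor of stromal and myeloid cells, was at 45.23 and 50.37 FPKM, a ratio of 0.16 that was not called. With Ltb lower, the level of Ltbr over Ltb went from 1.85 to 4.29.

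Promoter sequence was read from RefSeq (GRCm38.p6) as the 250 bases before each annotated start, which was found for 36 of the 46 members; Tnfrsf10b, Tnfrsf22, Tnfrsf26, Cd40lg, Cd70, Tnfsf4, Tnfsf9, Cd40, Tnfrsf11b and Tnfsf12 had no entry. On both strands, the windows were searched for the kappaB consensus, which NF-kappaB binds, for TTCNNNGAA, a spaced palindrome that STAT factors bind, and for the core of the interferon-stimulated response element. The kappaB consensus was in 3 of 36 members (8.33%, beside 4.46% of 27025 genes), in Ltb, Tnfrsf8 and Tnfrsf9. TTCNNNGAA was in 8 (22.2%, beside 8.13%), and the response element core in 4 (11.1%, beside 3.46%). Members that were not called hold matches too, among them Fas and Tnfrsf1a. Most members that fell and had a window held no match, but by the shares above each motif is also absent from most genes. The share of all genes without a match to any of these motifs was not counted. The members that fell and held no match were Tnf, Cd27, Tnfrsf4, Tnfsf14, Tnfsf10, Tnfsf13, Tnfrsf13b, Tnfrsf13c, Tnfrsf11a, Ngfr and Relt. The other window of Tnfrsf9 held none either. The windows shown are those of the members that fell and held at least 2 matches, chosen after the search. They are printed 5′ to 3′ on the strand of the gene and with matches on either strand in capitals. In Ltb the first capitals are TTCNNNGAA and the second the kappaB consensus, in Lta both are TTCNNNGAA, in Tnfrsf1b the first are TTCNNNGAA and the second the response element core, and in Tnfrsf9 TTCNNNGAA is followed by a pair of kappaB matches that overlap by all but 1 base.
Ltb, chr17:35194257-35194506, plus strand: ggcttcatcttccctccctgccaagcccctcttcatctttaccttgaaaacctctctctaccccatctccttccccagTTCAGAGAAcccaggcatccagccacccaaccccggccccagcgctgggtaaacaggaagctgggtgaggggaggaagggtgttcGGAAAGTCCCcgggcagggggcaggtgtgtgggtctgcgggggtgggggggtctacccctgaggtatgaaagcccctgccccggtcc
Lta, chr17:35205352-35205601, minus strand: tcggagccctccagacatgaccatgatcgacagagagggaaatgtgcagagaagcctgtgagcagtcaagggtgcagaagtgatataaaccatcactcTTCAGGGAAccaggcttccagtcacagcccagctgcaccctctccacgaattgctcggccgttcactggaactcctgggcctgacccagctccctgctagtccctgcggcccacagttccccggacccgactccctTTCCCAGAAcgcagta
Tnfrsf1b, chr4:145246871-145247120, minus strand: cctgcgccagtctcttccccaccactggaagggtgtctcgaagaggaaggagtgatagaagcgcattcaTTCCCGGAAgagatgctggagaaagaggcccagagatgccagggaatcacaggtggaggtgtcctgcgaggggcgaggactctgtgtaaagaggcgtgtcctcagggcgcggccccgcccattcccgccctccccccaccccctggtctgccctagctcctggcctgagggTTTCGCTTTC
Tnfrsf9, chr4:150927749-150927998, plus strand: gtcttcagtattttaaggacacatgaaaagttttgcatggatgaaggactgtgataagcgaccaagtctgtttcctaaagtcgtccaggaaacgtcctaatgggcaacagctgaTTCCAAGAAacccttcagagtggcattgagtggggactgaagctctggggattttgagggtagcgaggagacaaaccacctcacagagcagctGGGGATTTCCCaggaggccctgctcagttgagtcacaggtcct
A match describes the letters of a window and not binding in this tissue.

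The 3 ligands of death receptors were lower, beside 19.1% of all genes, and 1 of the 3 had an interval that left out 0, beside 14.3%. Tnfsf10 (TRAIL), an apoptosis ligand made by many immune cells, fell from 2.35 to 1.27 FPKM, which is a log2 ratio of -0.88 (interval -1.24 to -0.54). Fasl, the Fas ligand of cytotoxic lymphocytes, was at 0.56 and 0.26 FPKM, and Tnfsf15 (TL1A) at 0.10 and 0.06 FPKM. Their ratios of -1.08 and -0.65 rest on about 18 and 8 reads of Fasl and 10 and 6 reads of Tnfsf15, and both intervals included 0. Fas, the death receptor bound by Fas ligand, had 24.42 FPKM in fl/fl against 28.74 FPKM in AD1KO, a ratio of 0.23 (interval 0.07 to 0.40). Tnfrsf10b, the mouse TRAIL receptor that signals, was at 3.14 and 3.50 FPKM, a ratio of 0.16 (interval -0.15 to 0.47). Of the 7 death receptors and decoys 0 were lower, a count near the 19.1% of all genes for a set of this size, and their median ratio was 0.16. The interval of Tnfsf10 lies below those of Tnfrsf10b and Fas.

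Among the rest of this set, Tnfrsf21 (DR6) was at 9.68 and 8.76 FPKM and Tnfrsf25 (DR3), the receptor of TL1A, at 1.33 and 1.71 FPKM, with ratios of -0.14 and 0.36 that were not called. Tnfrsf22, Tnfrsf23 and Tnfrsf26 lie next to each other on chromosome 7, and the first 2 encode decoy receptors for TRAIL that lack a death domain. Tnfrsf23 (gene 79201, 150851714 to 150871777, minus strand) was the member of the set that rose, from 3.67 to 5.71 FPKM, with a ratio of 0.64 (interval 0.38 to 0.90). Tnfrsf22 was at 2.34 and 2.61 FPKM (ratio 0.16) and Tnfrsf26 at 1.60 and 1.24 FPKM (ratio -0.37), and neither was called. The 3 genes are related copies, and whether reads were divided correctly among them was not tested.

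**Figure D3:**
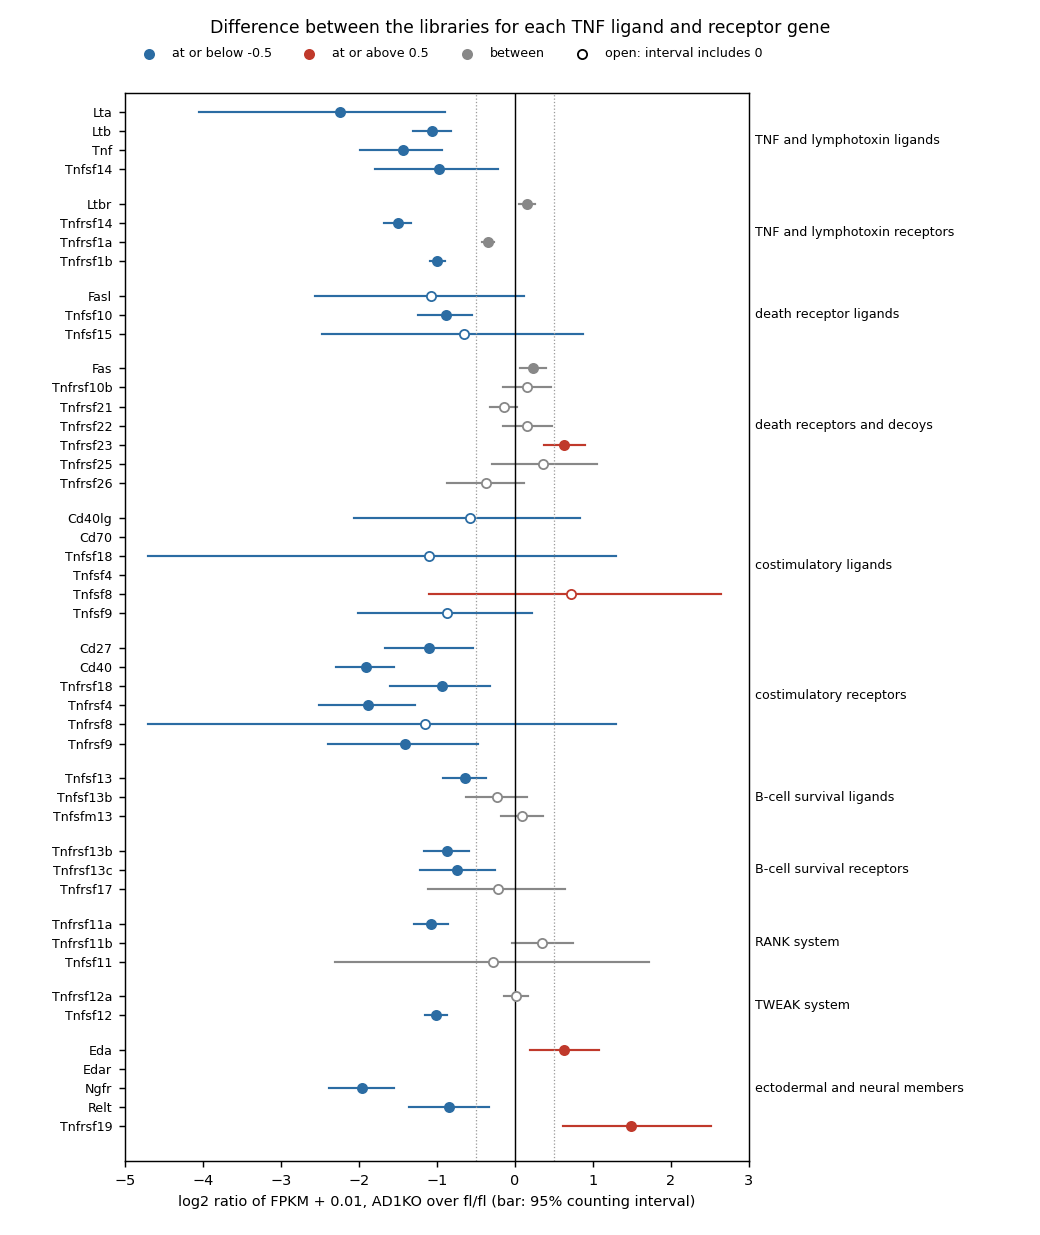
Log2 ratio of FPKM + 0.01 in AD1KO over fl/fl (points) with the 95% counting interval (bars) for 43 genes grouped by role; blue marks ratios at or below -0.5, red those at or above 0.5, and open points have an interval that includes 0. Cd70, listed at 0 in AD1KO, and Edar and Tnfsf4, below 0.1 FPKM in both libraries, are not drawn. The TNF and lymphotoxin ligands and the costimulatory receptors all lie left of -0.5, while Tnfrsf23, Eda and Tnfrsf19 lie to the right of 0.5 with filled points.

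The costimulatory receptors of lymphocytes and antigen-presenting cells were lower throughout, 6 of 6, beside 19.1% of all genes. Of these receptors 5 fell, beside 14.3% of all genes. Cd40 (gene 21939, chromosome 2, 164881127 to 164898448, plus strand), through which T cells activate B cells, macrophages and dendritic cells, fell from 10.55 to 2.81 FPKM, for which the log2 ratio was -1.90 (interval -2.30 to -1.54). Tnfrsf4 (OX40), found on activated and regulatory T cells, fell from 6.09 to 1.65 FPKM, a ratio of -1.88 (interval -2.51 to -1.28). Tnfrsf18 (GITR), on the same kinds of T cells and adjacent to Tnfrsf4 on chromosome 4, fell from 3.96 to 2.06 FPKM, a ratio of -0.94 (interval -1.59 to -0.31). The intervals of these neighbours overlap. In the annotation 27.2% of the exon bases of Tnfrsf18 are shared with a transcript on the opposite strand, and the sources used here do not give the strand of the library. Cd27, a receptor of T cells and memory B cells, fell from 3.44 to 1.60 FPKM (ratio -1.10, interval -1.66 to -0.54) and Tnfrsf9 (4-1BB), an activation-induced receptor of T and NK cells, from 1.08 to 0.40 FPKM (ratio -1.41, interval -2.39 to -0.47). Tnfrsf8 (CD30), at 0.19 and 0.08 FPKM, had only about 5 and 2 reads, too few to show a difference. The ratios of these receptors run from -1.90 to -0.94. T cell and NK cell markers, given above, had medians of -1.64 and -1.95. Markers of the cells that use Cd40 had medians nearer 0, at -0.70 for B and plasma cells, -0.98 for macrophages and -1.12 for dendritic cells. The interval of Cd40 lies below each of the medians for those cells. Which cells the RNA of these receptors came from was not tested.

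The matching ligands were scarce in both libraries. Tnfsf9 (4-1BB ligand) had the highest level, 1.12 FPKM in fl/fl and 0.61 in AD1KO, and Cd40lg, the CD40 ligand of helper T cells, was at 0.60 and 0.40 FPKM. Their log2 ratios of -0.87 and -0.57 had intervals that included 0. Tnfsf18 (GITR ligand) stood at 0.14 and 0.06 FPKM, and Tnfsf8 (CD30 ligand), the fourth member counted as higher, at 0.13 and 0.22 FPKM. Cd70, the ligand of CD27, and Tnfsf4 (OX40 ligand) were at 0.16 and 0.04 FPKM in fl/fl. Each of these 4 genes had at most about 8 reads in either library. No difference of a costimulatory ligand was therefore detectable, whereas 5 of the receptors fell. The level of Cd40 over Cd40lg was 17.6 in fl/fl and 7.03 in AD1KO, the latter from about 8 reads of Cd40lg.

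Genes of the BAFF and APRIL system, which keeps B cells and plasma cells alive, fell in part. Tnfrsf13b (TACI) fell from 6.64 to 3.63 FPKM with a log2 ratio of -0.87 (interval -1.16 to -0.59), and Tnfrsf13c, the BAFF receptor of mature B cells, from 3.19 to 1.91 FPKM, a ratio of -0.74 (interval -1.21 to -0.26). Tnfrsf17 (BCMA), the receptor of plasma cells, was at 2.11 and 1.81 FPKM, estimated at 26 and 22 reads, and its interval, -1.12 to 0.65, holds the ratios of both other receptors. The B and plasma cell markers had a median of -0.70, near these values. Of the ligands, Tnfsf13b (BAFF), made by myeloid and stromal cells, was at 4.27 and 3.65 FPKM and was not called (ratio -0.23, interval -0.63 to 0.16). Tnfsf13 (APRIL) fell from 10.45 to 6.69 FPKM, a ratio of -0.64 (interval -0.92 to -0.37).

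TWEAK, the product of Tnfsf12, is a cytokine that acts through the receptor Fn14, encoded by Tnfrsf12a, in tissue repair. Tnfsf12 (gene 21944, chromosome 11, 69499752 to 69509351, minus strand) was the most abundant ligand and fell from 45.54 to 22.65 FPKM with a log2 ratio of -1.01 (interval -1.15 to -0.87). Its receptor gene Tnfrsf12a was at 44.35 and 44.89 FPKM, a ratio of 0.02 (interval -0.14 to 0.17). The levels of ligand and receptor stood at a quotient of 1.03 in fl/fl and 0.505 in AD1KO. Tnfsf13 lies 465 bases downstream of Tnfsf12, and a readthrough gene, Tnfsfm13, joins them. In the mm9 annotation a gene model that spans both shares 48.3% of the exon bases of Tnfsf12 and 60.0% of those of Tnfsf13, so reads could be divided among the 3 genes in more than 1 way. Tnfsfm13 was at 5.93 and 6.34 FPKM (ratio 0.10, interval -0.18 to 0.37). Without these 3 genes, 24 of 41 members were lower and 4 higher, beside 19.1% and 14.3% of all genes, a count added after the data were seen.

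In the RANK system, which controls osteoclasts and also acts in myeloid cells, the receptor and the decoy differed. Tnfrsf11a (RANK) fell from 6.10 to 2.89 FPKM with a log2 ratio of -1.08 (interval -1.30 to -0.85), while Tnfrsf11b, the soluble decoy osteoprotegerin, was at 2.05 and 2.62 FPKM, a ratio of 0.35 (interval -0.04 to 0.75). The intervals do not overlap, and RANK over osteoprotegerin went from 2.98 to 1.10. Tnfsf11 (RANKL), the ligand of both, was at 0.16 and 0.13 FPKM, with about 6 and 5 reads and a ratio of -0.28.

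Members known from ectodermal and neural tissue, described here with Relt, went both ways. Edar, the ectodysplasin receptor, is listed at 0 in fl/fl and at 0.02 FPKM in AD1KO. Ngfr, the p75 neurotrophin receptor of nerve, Schwann and some stromal cells, fell from 4.18 to 1.07 FPKM with a log2 ratio of -1.96 (interval -2.38 to -1.55). Lta alone had a lower ratio among the members that fell. Relt, a receptor of lymphoid tissue, fell from 1.94 to 1.08 FPKM, a ratio of -0.84 (interval -1.36 to -0.33). Eda, the ectodysplasin ligand, rose from 0.85 to 1.32 FPKM (ratio 0.63, interval 0.19 to 1.08), and Tnfrsf19 (TROY), an orphan receptor of progenitor cells, rose from 0.20 to 0.58 FPKM (ratio 1.49, interval 0.62 to 2.52), from about 14 to 40 reads. Both genes that rose are low in this tissue, and with a pseudocount of 1 FPKM neither was called, at 0.33 for Eda and 0.40 for Tnfrsf19. Adipocyte and mesothelial markers rose as well, with medians of 0.58 and 0.79.

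**Figure D4:**
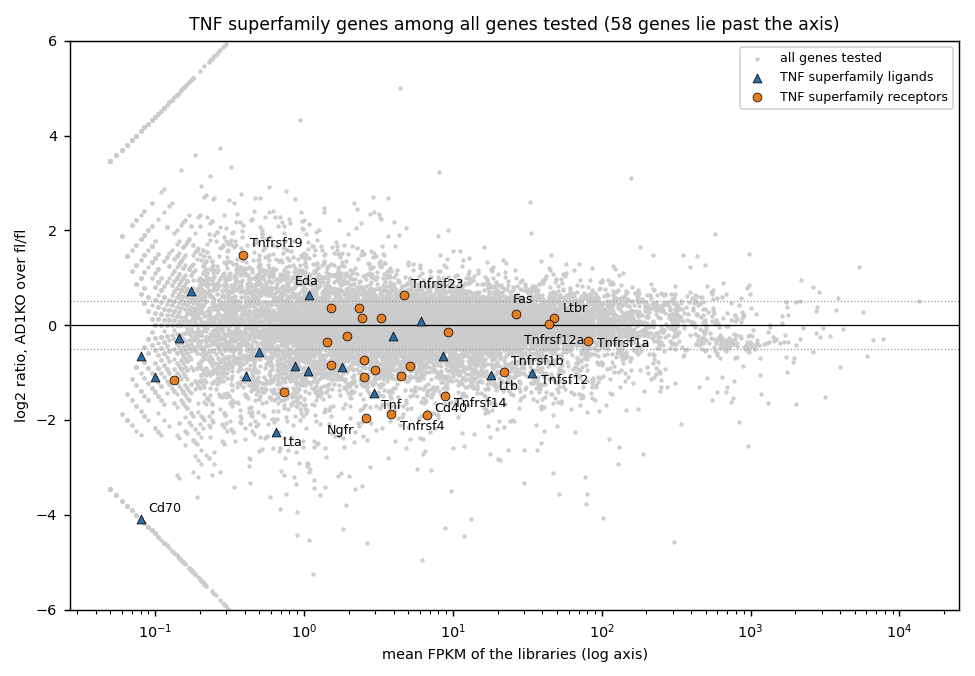
Log2 ratio of AD1KO over fl/fl against the mean FPKM of the libraries for all 15839 genes tested (grey), with the TNF superfamily ligands (triangles) and receptors (circles) that passed the minimum on top; dotted lines mark -0.5 and 0.5, and 58 genes lie past the axis. Of the 44 members 32 lie below 0 and 12 above it, beside 8527 and 7179 of all 15839 genes. Ltbr, Tnfrsf12a, Fas and Tnfrsf23 are among the members above 0.

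Some members that share a locus shared a direction and others did not. On chromosome 17 the ligands Tnfsf9, Cd70 and Tnfsf14 lie within a stretch in which gaps between them are 38239 and 39714 bases, of which Tnfsf14 fell, Tnfsf9 was lower with an interval that included 0, and Cd70 had too few reads to compare. On chromosome 6 Cd27 fell, but Ltbr and Tnfrsf1a, the next members at gaps of 69560 and 35476 bases, were not called. The ratio of Tnfrsf1a, -0.34, was below 0 like that of Cd27, and that of Ltbr, 0.16, was above it. On chromosome 4 Tnfrsf1b fell by 0.99 on the log2 scale, and its neighbour Tnfrsf8 had too few reads to compare. Tnfsf15 and Tnfsf8, 86194 bases apart on the same chromosome, were both under 20 reads in all, with ratios of -0.65 and 0.72.

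Part of the TNF signalling genes was lower as well. The list held 47 TRAF adaptors, death-domain adaptors, ubiquitin enzymes, kinases, NF-kappaB genes and sheddases. Of these, 16 were lower, beside 19.1% of all genes, and 0 were higher at this threshold, beside 14.3%. Their median log2 ratio was -0.33. Traf1, an adaptor induced by NF-kappaB, fell from 4.02 to 1.75 FPKM (ratio -1.20, interval -1.53 to -0.87), and Tnip3, a partner of the deubiquitinase A20, from 8.15 to 3.09 FPKM (ratio -1.40). Tnfaip3, which encodes A20, fell from 4.46 to 2.45 FPKM (ratio -0.86), and the necroptosis kinase gene Ripk3 from 12.08 to 5.78 FPKM (ratio -1.06). Edaradd, the adaptor of EDAR, fell from about 24 to 7 reads (ratio -1.58). Rel, the NF-kappaB subunit of lymphocytes, was at 0.37 and 0.18 FPKM, with an interval of the ratio, -2.42 to 0.32, that included 0. Birc3, an E3 ligase bound to TRAF2, was at 17.55 and 10.19 FPKM (ratio -0.78). Traf1 was the 1 gene called of the 7 TRAF adaptors, whose median ratio was -0.22, and Edaradd the 1 called of 7 death-domain adaptor genes, whose median was -0.17. Adam17, the sheddase that releases soluble TNF, fell from 12.95 to 8.24 FPKM (ratio -0.65), and Adam10 was at 12.95 and 12.53 FPKM. The largest ratios above 0 were those of Tab3 (0.47) and Traf4 (0.40), short of the threshold.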

How the data were processed

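Libraries of pooled gWAT RNA, 1 from fl/fl and 1 from AD1KO mice, were compared. The authors deposited FPKM per gene in a table of both libraries, with 0 written as 0.01; clean reads had been aligned to mouse mm9 according to the study's methods, while the submitters' processing notes also name mm10, and the aligner and quantifier are not given in the sources used here. The table also holds the authors' fold changes, P values and FDR, which were not used. Columns were matched to groups through the library names in the sample labels. Values of 0.01 were set to 0. The minimum for testing was 0.1 FPKM in either library.

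Reads were estimated without the deposited P values, from the steps in low FPKM values. The depth of each library and a length correction common to both were chosen so that genes with up to about 8 reads held whole numbers. The fit gave a correction of 116 bases, with 81.5% of 605 values in fl/fl and 81.0% of 604 in AD1KO within 0.15 of a whole read. Counting intervals (95%) were computed by the Clopper-Pearson method on the reads of both libraries. A listing of 0 allows up to 3 reads, but it entered the intervals as 0 reads.

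The members and gene lists were chosen with earlier results of these data known. Every member was accounted for; of the signalling and marker lists, up to 6 called genes with the largest ratios could be named, and further genes, among them Tab3, Traf4, Adam10, Birc3, Adam17 and the markers not called, were chosen after their values were seen. The GENCODE annotation of mm9 placed 45 of 46 members; promoters are from RefSeq on GRCm38.p6, a different build, and were matched by gene identifier. The libraries were also rescaled by the trimmed mean of M-values (30% of ratios and 5% of levels trimmed), the upper quartile or the median of ratios, and alternatives included other pseudocounts, minima and thresholds. Depth estimates and calls were checked on simulated libraries. Software was SciPy 1.17.1, NumPy 2.4.6, Matplotlib 3.10.9 and pandas 2.3.3 under Python 3.11.15.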

Additional observations from a re-analysis of the deposited data

How the results depend on the processing

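No paired analysis was possible because each group is 1 pooled library. Depth limits the genes with few reads: 8 members had under 20 estimated reads over both libraries, and 7 of the 26 lower members had an interval that included 0.

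Of the 26 lower members, 25 were lower under each of the 3 scalings, Cd40lg reaching -0.49 with upper quartile scaling. No ratio of a member changed sign, but a pseudocount, minimum or threshold cannot change a sign. The scalings multiplied AD1KO by only 1.03 to 1.06, too little to take any member across 0. The lack of sign changes is therefore no check of direction. A pseudocount of 1 FPKM, which shrinks the ratios of low genes by construction, gave 17 lower and 1 higher members and a median of -0.26, with 1661 lower and 965 higher among all genes, and a pseudocount of 0.1 FPKM gave a median of -0.66. A threshold of 1 gave 15 lower and 1 higher members, and 1417 and 910 among all genes. A minimum of 1 FPKM left 2 higher members and 1281 higher genes, as fewer were tested. Requiring the counting interval to leave out 0 gave 1463 higher genes. With at least 20 reads, an alternative added after the data were seen, 22 of 38 members were lower and 3 higher. Of all 14298 genes with that many reads, 2439 were lower and 1646 higher.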

Other observations

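Eda2r, the receptor of an ectodysplasin isoform, belongs to the TNF receptor superfamily but lies outside the names used here. It was at 0.59 FPKM in fl/fl and 0.49 FPKM in AD1KO, a log2 ratio of -0.26 with a counting interval from -0.89 to 0.32, and was not called.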
